A study of Rattus norvegicus with 16 samples.

Results

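Cell cycle and DNA replication genes were followed in rat supraspinatus muscle after a tendon tear combined with denervation. They are 40 genes listed by symbol and read from the rows of the deposited fragment table that carry those symbols. Of the 40, 7 act in G1 or at entry into S phase, 11 make or load the DNA replication machinery, and 22 act in G2 and mitosis. The table held 39 of them among 17147 genes. The expression of Bub1b is not analysed here, and Bub1b enters only the counts of promoters. All 39 passed the low-count filter, which left 11658 genes for testing.

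The supraspinatus is a muscle of the rotator cuff of the shoulder. The 16 libraries came from Sprague Dawley rats and form 4 groups of 4. The group at 0 days is labelled as control. The groups at 10, 30 and 60 days underwent suprascapular neurectomy, which takes the nerve supply from this muscle, plus a bilateral tear through the full thickness of the supraspinatus. Tear and neurectomy were always combined, and surgery and the time that passed after it share 1 set of 0-day libraries, so their parts cannot be told apart. The 16 titles carry 16 different numbers, but no label says that these are separate animals, and p-values measure only the spread between these samples.

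A cell that divides passes through G1, copies its DNA in S phase and separates the copies in mitosis. D-type cyclins act early in G1, E-type cyclins with Cdk2 and the transcription factor E2F1 start S phase, the Mcm2 to Mcm7 helicase opens the DNA, and Cdk1 with the A and B cyclins drives entry into mitosis. Mature muscle fibres do not divide, so in injured muscle these transcripts are usually ascribed to satellite cells (the muscle stem cells), fibroblasts, immune cells and endothelial cells. In a bulk library, fewer cells of a type and less RNA per cell cannot be told apart.

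Promoters of the members are shown first, with 3 motifs known from cell cycle genes; the difference between roles was not tested. RefSeq windows of the assembly GRCr8 were available with exactly 1 start for 28 of the 40 members, and the 250 bases before the start were searched on both strands. In late cell cycle promoters the CHR element, TTTGAA, is known to work next to CCAAT boxes, the letters bound by NF-Y. TTTGAA stood in 8 of 17 mitosis promoters and in 1 of 8 replication promoters, against 9.96% of the 8361 tested genes with 1 promoter. CCAAT stood in 14 of 17 mitosis promoters and in 6 of 8 replication promoters, against 34.8% of tested genes. E2F motifs were searched as TTTCCCGC, TTTGGCGC, TTTCGCGC and TTTGCCGC. They stood in 5 of 8 replication promoters and in 1 of 17 mitosis promoters, that of Cdk1, against 3.07% of tested genes. The motifs crossed the roles, since Mcm2 held TTTGAA. A match is a description of the letters and not a binding site. The 4 mitosis members below had the smallest p of the joint test over time among those with TTTGAA. Capitals mark TTTGAA and CCAAT on either strand, and in Mki67 1 pair of them overlaps.
Mki67 (chr1:199952611-199952730, minus strand): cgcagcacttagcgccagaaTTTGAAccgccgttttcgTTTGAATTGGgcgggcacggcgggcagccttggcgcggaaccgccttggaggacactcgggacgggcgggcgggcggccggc
Cdk1 (chr20:19265173-19265292, plus strand): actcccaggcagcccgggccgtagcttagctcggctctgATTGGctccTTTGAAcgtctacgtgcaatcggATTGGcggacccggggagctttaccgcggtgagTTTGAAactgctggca
Prc1 (chr1:143659361-143659480, plus strand): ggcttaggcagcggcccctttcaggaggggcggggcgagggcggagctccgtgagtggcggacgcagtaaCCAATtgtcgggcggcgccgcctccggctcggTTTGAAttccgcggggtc
Top2a (chr10:84473094-84473213, minus strand): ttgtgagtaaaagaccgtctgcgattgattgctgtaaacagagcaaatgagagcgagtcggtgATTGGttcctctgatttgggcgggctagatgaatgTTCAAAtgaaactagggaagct
The 3 replication members that follow were chosen in the same way among those with an E2F motif, which is in capitals. In Mcm6 and Mcm2 matches on opposite strands overlap.
Mcm7 (chr12:22163179-22163428, minus strand): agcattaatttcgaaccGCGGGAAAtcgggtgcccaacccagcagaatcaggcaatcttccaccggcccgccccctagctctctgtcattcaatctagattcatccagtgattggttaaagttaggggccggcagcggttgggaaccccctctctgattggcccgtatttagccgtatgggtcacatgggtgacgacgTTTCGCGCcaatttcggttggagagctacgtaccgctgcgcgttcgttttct
Mcm6 (chr13:42404392-42404511, minus strand): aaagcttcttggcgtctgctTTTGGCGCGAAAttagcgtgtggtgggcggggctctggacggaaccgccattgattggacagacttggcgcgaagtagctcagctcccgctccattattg
Mcm2 (chr4:122918095-122918214, minus strand): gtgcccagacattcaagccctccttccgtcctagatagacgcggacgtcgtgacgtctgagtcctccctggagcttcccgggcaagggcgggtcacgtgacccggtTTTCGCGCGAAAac

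Levels are given as CPM, the fragments of a gene per M fragments (M, mega) of TMM-scaled library size. TMM is a scaling that assumes most genes unchanged between libraries. The libraries held 17.2 to 39.9 M fragments, and those of 60 days (17.2 to 22.4 M) lay below all others. CPM is not divided by gene length, so levels are compared between samples and not between genes. Many members were thinly covered: 12 of the 21 mitosis members, 2 of the 11 replication members and 2 of the 7 G1 members had a mean under 1 CPM at 0 days. Muscle fibre markers marked the tissue as muscle, with summed levels of 239764 to 264682 CPM at 0 days. Sums of muscle fibre markers and of macrophage and leukocyte markers in the 3 operated groups differed from those at 0 days. Their relation to the members' levels was not tested. Muscle fibre markers summed to 70762 to 76651 CPM at 10 days, 114136 to 161510 at 30 days and 142822 to 166012 at 60 days. Macrophage and leukocyte markers summed to 53.6 to 85.3 CPM at 0 days, 156 to 208 at 10 days, 229 to 277 at 30 days and 190 to 340 at 60 days.

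Cell cycle members rose most often at 30 days, and mitosis members made up most of that rise. At 30 days against 0 days, 21 of the 39 members rose and 3 fell, where 64.6% of all genes tested were called (33.7% higher, 30.9% lower; edgeR quasi-likelihood test, Benjamini-Hochberg adjusted p under 0.05). Of the 21 mitosis members 13 rose, against 5 of 11 replication members and 3 of 7 G1 members. The median log2 fold change was 1.04 over the mitosis members, 0.33 over the replication members and 0.32 over the G1 members, beside 0.046 over all genes tested. Between these roles no test was made.

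At 10 days 15 members rose and 5 fell, where 62.7% of all genes were called (33.3% higher, 29.4% lower), and the role with the largest share of rises was G1 and G1/S control, with 4 of 7. Replication members counted 5 rises of 11 and no fall, and mitosis members 6 rises and 3 falls of 21. At 60 days 11 members rose and 4 fell, where 59% of all genes were called (29.9% higher, 29.1% lower), so the share of members that rose was close to the background. The comparisons at 10, 30 and 60 days share the same 0-day libraries. Scaling by library totals alone shifted the all-gene median (log2) by 0.66, 0.49 and 0.41 at 10, 30 and 60 days. Under that scaling 31 members rose and 3 fell at 10 days, 35 and 2 at 30 days, and 25 and 2 at 60 days. The share of all genes called under that scaling is not given here, so these counts have no background beside them. Relative to the median of all genes, the mitosis median at 30 days was 0.995 under TMM and 0.992 under library totals.

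**Figure D1:**
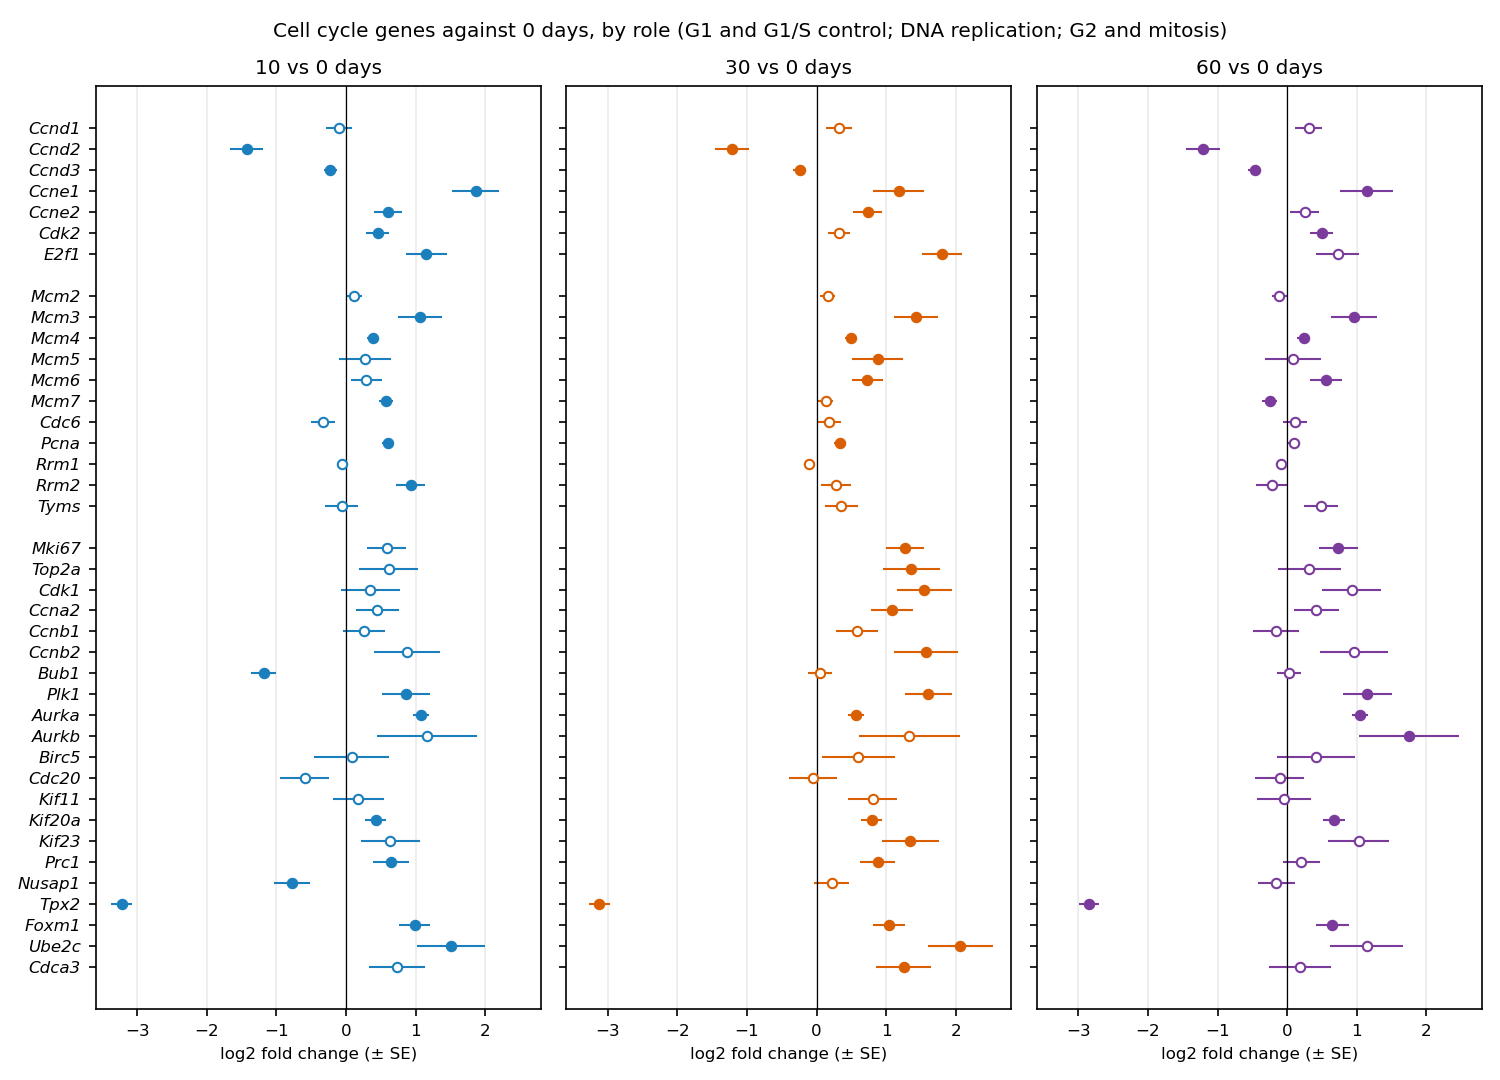
Log2 fold change against 0 days (x axis, point with standard error) of the 39 members (y axis, by role) at 10, 30 and 60 days; filled points passed an adjusted p under 0.05 and open points did not. At 30 days 13 of the 21 mitosis members are filled to the right of 0, and Tpx2 lies below -2.8 in all 3 panels.

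Counts of members whose groups did not overlap were also largest at 30 days. At 30 days all 4 libraries lay above all 4 of 0 days for 21 members and below them for 4, where groups did not overlap for 60.2% of all genes. At 10 days the counts were 12 and 3 (59% of all genes), and at 60 days 5 and 3 (50% of all genes). These shares of all genes take both directions together, and none was computed by direction. Taken in both directions, the members lay close to that share at 30 days and below it at 10 and 60 days. Of the 21 mitosis members 17 had their highest mean at 30 days. The replication members were divided, with 6 highest at 30 days (Cdc6 and Mcm2 to Mcm6) and 3 highest at 10 days (Mcm7, Pcna and Rrm2). In the joint test of the 4 groups 29 of 39 members changed, where 84.7% of all genes did.

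**Figure D2:**
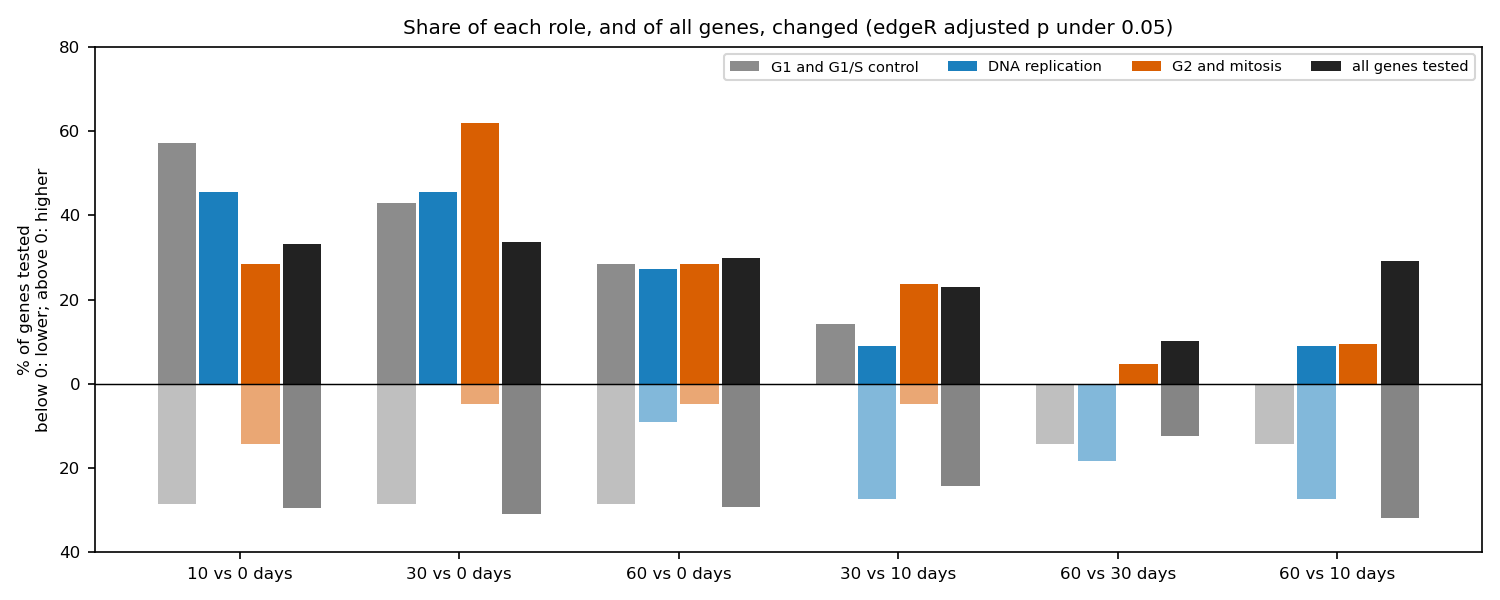
Share of genes called (y axis, percent of genes tested; higher above 0, lower below 0) in each of the 6 comparisons (x axis) for the 3 roles and for all genes tested. The tallest bar among the roles is that of mitosis at 30 against 0 days, 13 of 21 members, beside 33.7% of all genes.

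Of the D cyclins, which start the cycle by activating Cdk4 and Cdk6, Ccnd2 and Ccnd3 fell, whereas the E cyclins and E2f1 rose. Ccne1, which activates Cdk2 at the start of S phase, measured 0.337, 0.257, 0.178 and 0.239 CPM in replicates 1 to 4 of 0 days and 1.02, 0.788, 0.923 and 0.953 CPM at 10 days. It measured 0.638, 0.404, 0.72 and 0.563 CPM at 30 days and 0.507, 0.336, 0.351 and 0.978 CPM at 60 days. All libraries of 10 and 30 days lay above those of 0 days, while at 60 days replicate 4 stood far above the other 3 and replicate 2 lay below the highest 0-day library. The log2 fold change was 1.86 ± 0.34 (SE, n = 4 per group) at 10 days (edgeR adjusted p = 0.000164), 1.18 ± 0.36 at 30 days (adjusted p = 0.00917) and 1.14 ± 0.38 at 60 days (adjusted p = 0.016). The last value was 0.70 and did not pass without 60-day replicate 4 (adjusted p = 0.144). These levels rest on 4 to 35 fragments per library.

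E2f1, the factor that switches on S phase genes, had its highest levels at 30 days. Its levels were 0.45, 0.99, 0.803 and 0.67 CPM at 0 days, 1.77, 1.51, 1.52 and 1.84 CPM at 10 days, 3.12, 2.09, 1.96 and 3.3 CPM at 30 days and 0.876, 1.07, 0.935 and 2 CPM at 60 days. The 10-day libraries lay between those of 0 and of 30 days with no overlap, and at 60 days 3 of the 4 libraries lay near the top of the 0-day range. E2f1 rose by a log2 fold change of 1.15 ± 0.29 at 10 days (edgeR adjusted p = 0.00248) and 1.8 ± 0.29 at 30 days (adjusted p = 4.47e-05), and measured 0.72 ± 0.31 at 60 days (adjusted p = 0.0541). The value at 60 days passed without 0-day replicate 2 (0.94), 60-day replicate 1 (0.86) or 60-day replicate 3 (0.83), with adjusted p between 0.0293 and 0.0439. E2f1 also rose from 10 to 30 days (0.65 ± 0.26, adjusted p = 0.0469), a call lost in 9 of 16 fits that each left out 1 library (adjusted p up to 0.135, without 30-day replicate 4). It fell from 30 to 60 days (-1.08 ± 0.27, adjusted p = 0.0103). The other E cyclin, Ccne2, rose by 0.60 ± 0.20 at 10 days and 0.73 ± 0.20 at 30 days. Its call at 10 days was lost without 0-day replicate 2 (0.53, adjusted p = 0.0515) and without 10-day replicate 4 (0.50, adjusted p = 0.0588). The mRNA of Cdk2, the kinase of the E cyclins, rose by 0.46 ± 0.16 at 10 days and 0.49 ± 0.17 at 60 days, and measured 0.32 ± 0.16 at 30 days (adjusted p = 0.0964), where it passed without 0-day replicate 4 (0.46, adjusted p = 0.0259). At 10 days the Cdk2 call was lost without 0-day replicate 1 (0.38), 0-day replicate 3 (0.42) or 10-day replicate 1 (0.42), with adjusted p between 0.0549 and 0.0686.

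Ccnd2 fell at all 3 times. It measured 6.8, 6.34, 7.76 and 5.7 CPM at 0 days, 3.37, 1.35, 2.7 and 2.43 CPM at 10 days, 2.05, 3.82, 3.16 and 2.33 CPM at 30 days and 2.58, 2.24, 3.33 and 3.33 CPM at 60 days. Every operated library lay below every 0-day library, and the 3 operated groups overlapped one another. The log2 fold change was -1.43 ± 0.24 at 10 days (edgeR adjusted p = 7.4e-05), and it was -1.21 ± 0.24 and -1.21 ± 0.25 at the later times. Ccnd3, known for its part in muscle differentiation, was lower by less: -0.22 ± 0.095, -0.24 ± 0.095 and -0.47 ± 0.096 at 10, 30 and 60 days (adjusted p = 0.0492, 0.0353 and 0.000607). With library totals alone the Ccnd3 values were 0.44 at 10 days and 0.25 at 30 days. Relative to the median of all genes they were -0.29 and -0.29 under TMM and -0.28 and -0.29 under library totals. The call at 10 days was lost in 10 of 16 fits that each left out 1 library (adjusted p up to 0.173, without 10-day replicate 2), and that at 30 days in 6 of 16 (adjusted p up to 0.0824, without 30-day replicate 2). Ccnd1, the cyclin that growth factors induce, passed at no time against 0 days, with values of -0.11 ± 0.19, 0.32 ± 0.19 and 0.31 ± 0.19. With library totals alone the Ccnd1 value at 10 days was 0.55; relative to the median of all genes it was -0.17 under TMM and -0.16 under library totals.

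**Figure D3:**
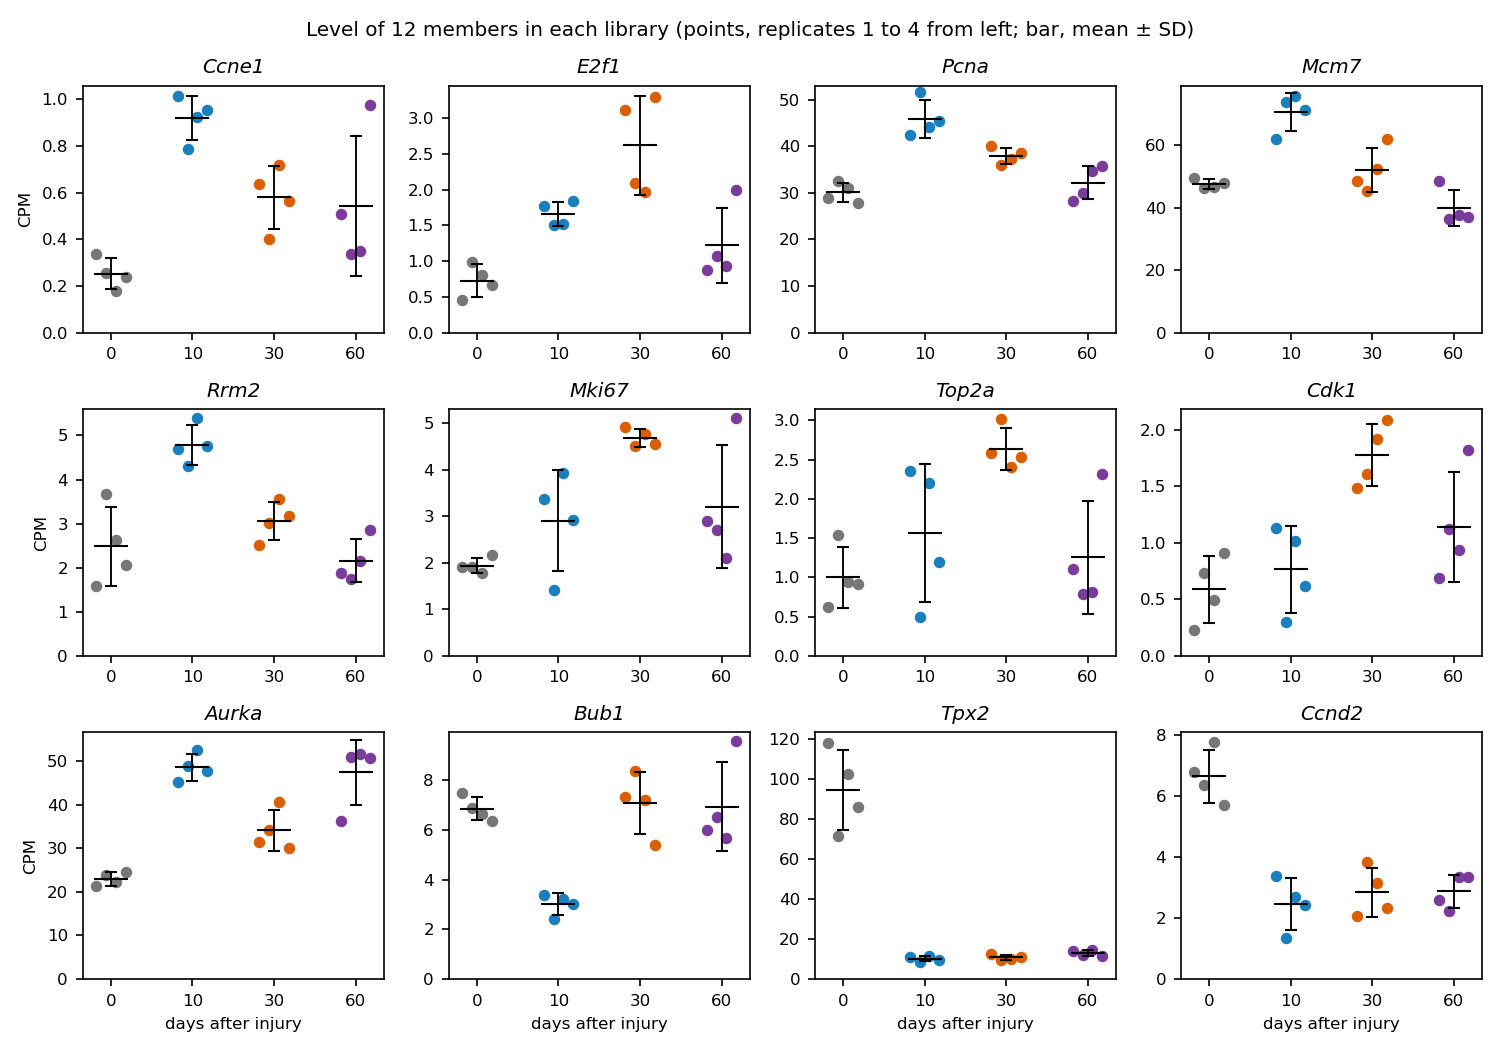
Level (y axis, CPM on a linear scale from 0) of 12 members in each library at 0, 10, 30 and 60 days (x axis; points are replicates 1 to 4 from left, bars are mean ± SD, n = 4). Pcna, Mcm7 and Rrm2 are highest at 10 days, Mki67, Top2a and Cdk1 have their highest means at 30 days with 10-day replicate 2 low and 60-day replicate 4 high, and Tpx2 falls from 71.4 to 118 CPM at 0 days to under 15 CPM.

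The replication members that rose at 10 days were Mcm3, Mcm4, Mcm7, Pcna and Rrm2, and 3 of them were highest at that time. Pcna, the sliding clamp that holds DNA polymerase on its template, measured 28.9, 32.5, 31.1 and 27.9 CPM at 0 days, 42.4, 51.7, 44.1 and 45.4 CPM at 10 days, 40, 36, 37.2 and 38.5 CPM at 30 days and 28.3, 30, 34.6 and 35.8 CPM at 60 days. The groups of 0, 10 and 30 days did not overlap, with 10 days above 30 days and 30 days above 0 days, and the 60-day libraries reached from the 0-day range up to just under that of 30 days. Pcna rose by a log2 fold change of 0.61 ± 0.085 at 10 days (edgeR adjusted p = 1.06e-05) and 0.33 ± 0.086 at 30 days (adjusted p = 0.00286), and measured 0.095 ± 0.086 at 60 days. It fell from 10 to 30 days (-0.28 ± 0.085, adjusted p = 0.0129; -0.22 with adjusted p = 0.0541 without 10-day replicate 2) and from 10 to 60 days (-0.51 ± 0.085, adjusted p = 7.22e-05).

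Mcm7, a subunit of the replicative helicase whose promoter is shown above with 2 E2F matches, was also highest at 10 days, but was lowest at 60 days. Its levels were 49.5, 46.4, 46.6 and 47.9 CPM at 0 days, 62.1, 73.9, 75.9 and 71.1 CPM at 10 days, 48.5, 45.4, 52.5 and 62 CPM at 30 days and 48.5, 36.3, 37.6 and 37.1 CPM at 60 days. The 10-day libraries lay above all others, 30-day replicate 4 came nearest to them, and 60-day replicate 1 stood apart from the other 3 of its group. Mcm7 rose by 0.57 ± 0.10 at 10 days (edgeR adjusted p = 0.000141), measured 0.13 ± 0.10 at 30 days and was lower by -0.25 ± 0.10 at 60 days (adjusted p = 0.0465). With library totals alone the value at 60 days was 0.15, but relative to the median of all genes it was -0.29 under TMM and -0.30 under library totals. The call at 60 days was lost in 10 of 16 fits that each left out 1 library (adjusted p up to 0.151, without 60-day replicate 4). The fall from 10 to 60 days, -0.83 ± 0.10 (adjusted p = 4.47e-06), passed in the same fit.

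Rrm2, the regulated subunit of the enzyme that makes deoxyribonucleotides, measured 1.57, 3.67, 2.63 and 2.06 CPM at 0 days, 4.7, 4.3, 5.4 and 4.76 CPM at 10 days, 2.51, 3.01, 3.56 and 3.18 CPM at 30 days and 1.89, 1.74, 2.16 and 2.84 CPM at 60 days. The 10-day libraries lay above those of all other groups, which overlapped one another. It rose by 0.93 ± 0.21 at 10 days (edgeR adjusted p = 0.00124), and it fell from 10 to 30 days (-0.65 ± 0.21, adjusted p = 0.0176) and from 10 to 60 days (-1.14 ± 0.22, adjusted p = 0.00028). The first of these calls was lost without 10-day replicate 3 (-0.58, adjusted p = 0.0501) or 30-day replicate 1 (-0.56, adjusted p = 0.0524). Its partner subunit Rrm1, which is present through the whole cycle, passed at none of the 3 times against 0 days. The Rrm1 values were -0.053 ± 0.068, -0.12 ± 0.068 and -0.084 ± 0.069, and all 3 turned positive with library totals (0.60, 0.38 and 0.32) or upper-quartile factors (0.0011, 0.0078 and 0.057). Relative to the median of all genes the Rrm1 values were -0.11, -0.16 and -0.12 under TMM and -0.11, -0.16 and -0.13 under library totals.

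The helicase subunits other than Mcm7 leaned to 30 days. Mcm3 measured 0.731, 1.39, 1.2 and 1.05 CPM at 0 days, 3.08, 1.91, 2.44 and 1.91 CPM at 10 days, 3.54, 2.87, 2.8 and 2.81 CPM at 30 days and 1.11, 1.29, 2.69 and 3.55 CPM at 60 days. Both earlier operated groups lay above 0 days, while the 60-day libraries were divided, replicates 1 and 2 within the 0-day range and replicates 3 and 4 above it. Mcm3 rose by 1.07 ± 0.32 at 10 days (edgeR adjusted p = 0.00789), 1.43 ± 0.32 at 30 days (adjusted p = 0.000878) and 0.96 ± 0.33 at 60 days (adjusted p = 0.0196). Mcm4 rose by 0.39 ± 0.086, 0.50 ± 0.086 and 0.23 ± 0.087, with adjusted p of 0.000863, 8.97e-05 and 0.0286. Mcm6 rose at 30 days (0.73 ± 0.22) and 60 days (0.55 ± 0.23), and Mcm5 at 30 days (0.88 ± 0.37, adjusted p = 0.0445). Without 60-day replicate 4 the 60-day values of Mcm3 (0.61), Mcm4 (0.18) and Mcm6 (0.45) did not pass. Each of these 3 calls was also lost without other single libraries, in 3, 3 and 10 of 16 fits in all, and the Mcm5 call was lost in 8 of 16. Mcm2 passed at none of the 3 times, nor did Cdc6, which loads the helicase, or Tyms, which makes thymidylate. The 6 replication members that did not pass at 30 days had values between -0.12 and 0.36.

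Mitosis members rose more widely at 30 days than at 10. Their median SD of log2 CPM within a group was smallest at 30 days, 0.21 against 0.44 to 0.55 in the other groups. Over all genes tested it was 0.17 at 30 days. Mki67, whose protein coats mitotic chromosomes and is the usual marker of dividing cells, measured 1.91, 1.91, 1.78 and 2.16 CPM at 0 days, 3.37, 1.41, 3.92 and 2.92 CPM at 10 days, 4.92, 4.51, 4.76 and 4.54 CPM at 30 days and 2.9, 2.69, 2.1 and 5.11 CPM at 60 days. The 30-day libraries lay above all of 0 and of 10 days, 10-day replicate 2 lay below every 0-day library, and 60-day replicate 4 was the highest of the 16. The log2 fold change was 0.58 ± 0.28 at 10 days (edgeR adjusted p = 0.0787), 1.27 ± 0.28 at 30 days (adjusted p = 0.000749) and 0.74 ± 0.28 at 60 days (adjusted p = 0.0351). Without 10-day replicate 2 the value at 10 days was 0.81 and passed (adjusted p = 0.00681), as it did without 60-day replicate 4 (0.59, adjusted p = 0.0388). The value at 60 days was 0.43 without 60-day replicate 4 and did not pass (adjusted p = 0.181). The call at 60 days was also lost without 0-day replicate 1 (0.75), 0-day replicate 2 (0.74) or 0-day replicate 3 (0.71).

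Top2a, which untangles sister chromosomes, measured 0.618, 1.54, 0.937 and 0.91 CPM at 0 days, 2.35, 0.493, 2.21 and 1.2 CPM at 10 days, 2.59, 3.01, 2.4 and 2.53 CPM at 30 days and 1.11, 0.785, 0.818 and 2.31 CPM at 60 days. At 10 days replicates 1 and 3 stood near the 30-day level and replicate 2 below all of 0 days. Top2a rose by 1.36 ± 0.42 at 30 days (edgeR adjusted p = 0.00901) and measured 0.61 ± 0.42 at 10 days and 0.32 ± 0.45 at 60 days. Without 60-day replicate 4 the value at 60 days was -0.15, and without 10-day replicate 2 that at 10 days was 0.90 and passed (adjusted p = 0.0397). Cdk1, the kinase that drives mitosis, measured 0.225, 0.733, 0.491 and 0.91 CPM at 0 days, 1.13, 0.296, 1.02 and 0.615 CPM at 10 days, 1.49, 1.61, 1.92 and 2.09 CPM at 30 days and 0.692, 1.12, 0.935 and 1.82 CPM at 60 days. Its 30-day libraries lay above all of 0 and of 10 days, and 60-day replicate 4 lay among them. Cdk1 rose by 1.55 ± 0.40 at 30 days against 0 days (edgeR adjusted p = 0.00289) and by 1.20 ± 0.37 from 10 to 30 days (adjusted p = 0.0143). At 60 days it measured 0.93 ± 0.42 (adjusted p = 0.0696), and it passed in 3 of 16 fits that each left out 1 library (0-day replicate 4, 10-day replicate 2 or 60-day replicate 1; adjusted p down to 0.0354).

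The other mitosis members that rose at 30 days ranged from Aurka, described further on, at 0.57 ± 0.11, to Ube2c, which marks mitotic cyclins for destruction, at 2.06 ± 0.47 (edgeR adjusted p = 0.00105). Between them were the cyclins Ccna2 (1.08 ± 0.30) and Ccnb2 (1.57 ± 0.46), the mitotic kinase Plk1 (1.61 ± 0.33, adjusted p = 0.000497) and Foxm1 (1.04 ± 0.23), the factor that switches on G2 and mitosis genes. Kif20a, Kif23 and Prc1, which build the midzone of the spindle, rose by 0.79 ± 0.15, 1.35 ± 0.41 and 0.88 ± 0.26, and Cdca3 by 1.25 ± 0.39. Of the 21, 6 passed at 30 days and at neither other time (Ccna2, Ccnb2, Cdca3, Cdk1, Kif23 and Top2a). Aurka, Foxm1, Kif20a and Plk1 passed at all 3 times. Without 60-day replicate 4 the Foxm1 value at 60 days was 0.47 (adjusted p = 0.115), and it was also lost in 3 other fits that each left out 1 library. The calls at 10 days of Plk1 (0.86 ± 0.34), Prc1 (0.64 ± 0.26) and Kif20a (0.43 ± 0.15) were lost in 5, 4 and 3 of the 16 fits, with adjusted p up to 0.122, 0.122 and 0.0694. Members that passed at no time were Birc5, Ccnb1, Cdc20 and Kif11, and the 7 uncalled members at 30 days lay between -0.056 and 1.33. Aurkb, the kinase of the chromosomal passenger complex, held 0 fragments in 0-day replicate 1, which allows up to 0.169 CPM. It passed at 60 days (1.75 ± 0.72, adjusted p = 0.0463), a call lost in 11 of 16 fits with 1 library left out (adjusted p up to 0.195, without 60-day replicate 4).

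Leukocyte and fibroblast markers rose beside these genes. At 30 days against 0 days all 13 macrophage and leukocyte markers tested rose, as did 9 of 10 fibroblast markers and 6 of 9 satellite cell and myoblast markers, while 9 of 11 muscle fibre markers fell. At 10 days 11, 6 and 5 markers of the first 3 lists rose, and at 60 days 13, 9 and 5. Endothelial markers went the other way at 10 days, with 0 of 7 higher and 6 lower. They counted 0 and 2 at 30 days and 1 and 1 at 60 days, where 6 of the 7 estimates lay above 0. Of all genes tested 33.3%, 33.7% and 29.9% rose and 29.4%, 30.9% and 29.1% fell at 10, 30 and 60 days. The part of these cell types in the members' changes was not tested.

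Aurka, a kinase that builds spindle poles, was the mitosis member with its highest mean at 10 days. It measured 21.3, 23.8, 22.2 and 24.6 CPM at 0 days, 45.3, 48.7, 52.6 and 47.7 CPM at 10 days, 31.5, 34.2, 40.7 and 30 CPM at 30 days and 36.2, 50.9, 51.7 and 50.8 CPM at 60 days. All operated libraries lay above 0 days, the 30-day group lay below the 10-day group, and 60-day replicate 1 was low in its group. Aurka rose by 1.08 ± 0.11 at 10 days (edgeR adjusted p = 4.13e-07), 0.57 ± 0.11 at 30 days (adjusted p = 0.000354) and 1.04 ± 0.11 at 60 days (adjusted p = 1.29e-06). It fell from 10 to 30 days (-0.51 ± 0.11, adjusted p = 0.00125) and rose from 30 to 60 days (0.47 ± 0.11, adjusted p = 0.00646), the only member that rose between those times.

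Tpx2, which activates Aurka on the spindle, fell furthest of the 39 members. It measured 118, 71.4, 103 and 86.3 CPM at 0 days, 10.9, 8.61, 11.4 and 9.5 CPM at 10 days, 12.6, 9.69, 10 and 11.1 CPM at 30 days and 14.2, 11.9, 14.8 and 11.6 CPM at 60 days. No operated library came near the lowest 0-day library. The log2 fold change was -3.23 ± 0.15, -3.13 ± 0.15 and -2.85 ± 0.15 at 10, 30 and 60 days (edgeR adjusted p = 1.26e-10, 2.58e-10 and 2.12e-09). In the RefSeq annotation of GRCr8 the gene next to Tpx2 on one side is Mylk2, the myosin light chain kinase of skeletal muscle. Mylk2 had 3603 ± 144, 272 ± 46.1, 423 ± 124 and 934 ± 88.5 CPM (SD, n = 4) at 0, 10, 30 and 60 days, so it was lower in the same groups. The gene on the other side, Bcl2l1, had 32.3 ± 11, 30.9 ± 3.04, 30.5 ± 4.20 and 42.7 ± 11.8 CPM. The annotation used for counting was of the assembly rn5, and whether reads of Mylk2 entered the Tpx2 row was not tested. These neighbours were looked up after the values of Tpx2 were seen.

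The strand setting of the counting is not given in the sources used here. Whether reads of genes that overlap entered each other's rows was not tested, nor whether their exons overlap. Apart from Tpx2, 10 members overlap the span of another protein-coding gene in GRCr8. Among them Aurka overlaps Fam210b, which had 11.7 ± 0.891, 12.2 ± 1.22, 7.04 ± 0.768 and 5.25 ± 1.24 CPM (SD, n = 4) at 0, 10, 30 and 60 days, lower at 30 and 60 days than at 0 days. Nusap1 overlaps Ndufaf1, which had 26.9 ± 2.90, 17.6 ± 4.53, 18.9 ± 1.45 and 15.0 ± 0.763 CPM in the same order. Kif20a overlaps Cdc23 (26.6 ± 1.05, 32.5 ± 2.76, 30.6 ± 1.05 and 31.9 ± 2.28 CPM), and its part in the rises of Kif20a was not tested. Rrm2 overlaps Cys1 (7.99 ± 0.636, 10.2 ± 1.56, 9.0 ± 2.09 and 6.58 ± 1.82 CPM), whose means had the order 10, 30, 0 and 60 days, as did those of Rrm2. Cdca3, with means under 1 CPM in every group, overlaps Usp5 (98.1 ± 4.89, 257 ± 36, 157 ± 11.6 and 115 ± 19.8 CPM). The part of either in its partner's values was not tested. The remaining 5 are Ccne2, Cdk2, Plk1, Kif11 and Foxm1.

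Bub1 and Nusap1 were the members that fell at 10 days and at no other time. Bub1, a kinase of the spindle checkpoint, measured 7.48, 6.89, 6.65 and 6.37 CPM at 0 days, 3.39, 2.4, 3.23 and 3.01 CPM at 10 days, 7.33, 8.36, 7.2 and 5.39 CPM at 30 days and 5.99, 6.5, 5.67 and 9.55 CPM at 60 days. The 10-day libraries lay below all others, and the other 3 groups overlapped. Bub1 fell by 1.18 ± 0.18 on the log2 scale at 10 days (edgeR adjusted p = 1.99e-05), then rose from 10 to 30 days by 1.23 ± 0.17 (adjusted p = 2.83e-05). Nusap1, which bundles spindle microtubules, measured -0.78 ± 0.26 at 10 days (adjusted p = 0.0168; -0.70 with adjusted p = 0.0513 without 0-day replicate 2) and rose from 10 to 30 days by 0.99 ± 0.26 (adjusted p = 0.00447).

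The operated groups were also compared with one another. Of 39 members 7 rose and 4 fell from 10 to 30 days, where 47.3% of all genes were called (23% higher, 24.3% lower). Mitosis members counted 5 rises of 21 and replication members 3 falls of 11, both close to the share of all genes. In 10 members all 30-day libraries lay above all of 10 days and in 5 below, where 43.8% of all genes did not overlap. The 7 were Bub1, Cdk1, Mki67, Nusap1 and Plk1 of mitosis, Cdc6 of replication and E2f1, and the 4 were Mcm7, Pcna, Rrm2 and Aurka. With the last letter of the title (L or not) as a covariate, 4 rose (Bub1, Cdc6, Cdk1 and Nusap1) and 5 fell, so that Mki67, Plk1 and E2f1 did not pass and Ccne1 was added to the falls. Without 10-day replicate 2 the counts were 4 and 3. The shares of all genes called in these alternative fits are not given here. Leaving out 1 library at a time lost the Plk1 call in 10 of 16 fits, that of Mki67 in 6, Cdc6 in 3, Rrm2 in 2 and Pcna in 1 (adjusted p up to 0.13, 0.106, 0.0741, 0.0524 and 0.0541). From 10 to 60 days 3 rose (Bub1, Cdc6 and Tpx2) and 4 fell (Ccnd3, Mcm7, Pcna and Rrm2), where 61.1% of all genes were called (29.1% higher, 31.9% lower) and 51.2% did not overlap (3 members above, 3 below). From 30 to 60 days 1 rose and 3 fell (E2f1, Mcm4 and Mcm7), where 22.6% of all genes were called (10.3% higher, 12.4% lower) and 20.1% did not overlap (0 members above, 7 below). The Mcm4 and Mcm7 calls were lost in 5 and 2 of 16 such fits (adjusted p up to 0.108 and 0.0587). Without 60-day replicate 4 the counts from 30 to 60 days were 1 and 10, with Ccnb2, Kif11, Mki67, Prc1 and Top2a among the falls, and from 10 to 60 days 2 and 8. Cdc6 rose by 0.51 ± 0.17 from 10 to 30 days (edgeR adjusted p = 0.0205) and by 0.45 ± 0.17 from 10 to 60 days (adjusted p = 0.0324). The Cdc6 call from 10 to 60 days was lost in 5 of 16 fits that each left out 1 library, that of Tpx2 in 4 and that of Ccnd3 in 9 (adjusted p up to 0.107, 0.103 and 0.14).

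Spread within groups was wider for mitosis than for replication members in all 4 groups, and nearest to it at 30 days. The median SD of log2 CPM over the 4 libraries of a group was 0.49, 0.55, 0.21 and 0.44 for mitosis members at 0, 10, 30 and 60 days. For replication members it was 0.18, 0.13, 0.18 and 0.20, and for all genes tested 0.14, 0.15, 0.17 and 0.21. The median biological coefficient of variation, the relative spread that edgeR estimates beyond counting error, was 0.249 for mitosis, 0.145 for replication, 0.190 for G1 members and 0.129 for all genes. It ran from 0.0784 in Rrm1 to 0.602 in Aurkb. Mitosis members also had the lowest counts, with a median of 6 fragments in the lowest library against 49 for replication members, and counting error adds to their SD.

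At 0, 10 and 60 days part of the spread within groups was shared by the members, with the same library high or low in many of them. No library stood out in this way at 30 days. There replicate 1 was most often the lowest, for 14 of 39 members, and replicate 3 most often the highest, for 13. At 10 days replicate 2 was the lowest library for 17 of the 21 mitosis members, with a median deviation from its group mean of -0.50 on the log2 scale, and replicate 1 was the highest for 15. At 60 days replicate 4 was the highest library for 31 of 39 members: 16 of 21 mitosis, 8 of 11 replication and all 7 G1 members. At 0 days replicate 1 was the lowest for 20 of 39. Fibroblast markers moved with 10-day replicate 2, 60-day replicate 4 and 0-day replicate 1. Macrophage and leukocyte markers moved with 60-day replicate 4 and 0-day replicate 1. At 10 days their lowest library was replicate 4 for 5 of 13, nearly as often as replicate 2. Replicate 2 of 10 days was also the lowest for 8 of 10 fibroblast markers and 6 of 13 macrophage and leukocyte markers, and replicate 4 of 60 days the highest for 8 of 10 and 13 of 13. Replicate 1 of 0 days was the lowest for 9 of 10 and 12 of 13. Other lists were mixed. For these 3 libraries in turn the counts were 4, 4 and 2 of 9 satellite cell and myoblast markers. They were 4, 3 and 2 of 7 endothelial markers and 0, 0 and 5 of 11 muscle fibre markers. T and B cell markers counted 1, 4 and 4 of 4, Schwann cell markers 4, 2 and 1 of 6, and adipocyte markers 3, 2 and 4 of 5. The part of these cell types in the members' spread was not tested. By contrast with mitosis members, 10-day replicate 2 was lowest for 5 of 11 replication members, with a median deviation of 0.0055. Replicate 1 of 10 days and replicate 4 of 60 days are the single libraries of their group whose title ends in L. The labels do not give the meaning of this letter. With it as a covariate 21, 23 and 17 members changed at 10, 30 and 60 days. The share of all genes called in that fit is not given here.

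**Figure D4:**
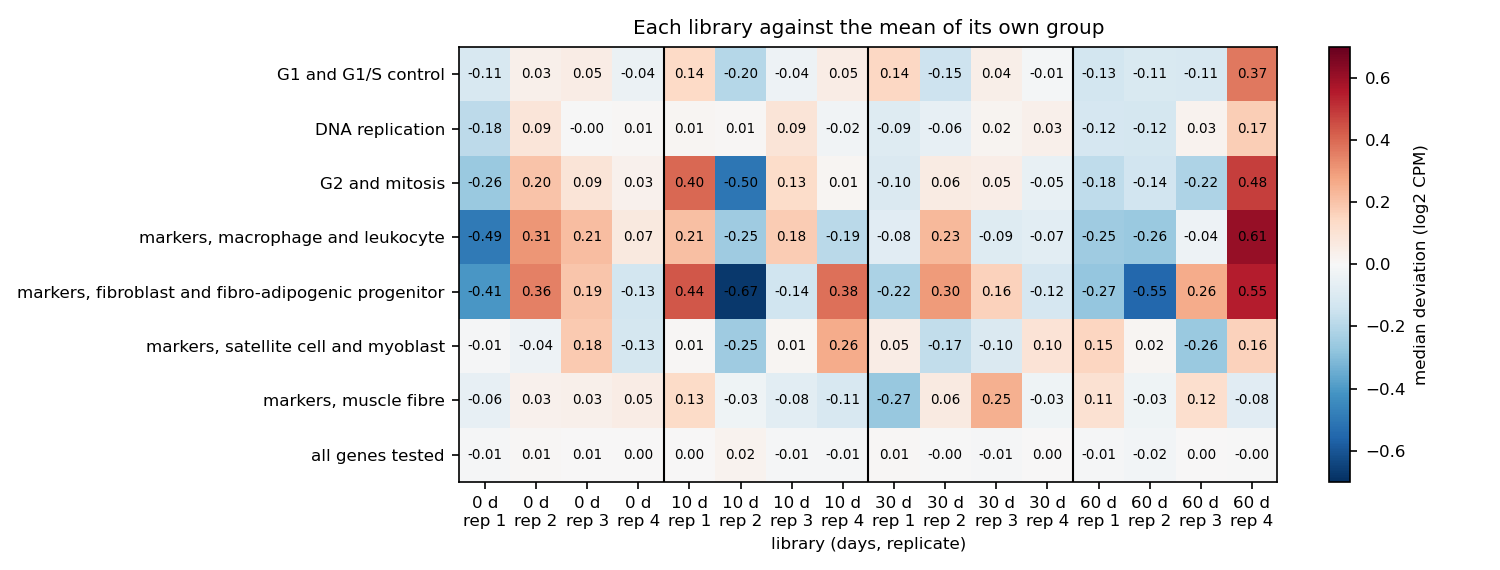
Median deviation of each library from its group mean (colour and printed value, log2 CPM) for the 3 roles, 4 marker lists and all genes tested (y axis) in the 16 libraries (x axis, days and replicate). Mitosis members stand at -0.50 in 10-day replicate 2 and at 0.48 in 60-day replicate 4, where fibroblast markers stand at -0.67 and 0.55 and all genes at 0.022 and -0.0015.

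Counts at 60 days moved more than those at 30 days when single libraries were left out. Without 60-day replicate 4, 4 members rose at 60 days (Aurka, Cdk2, Kif20a and Plk1) and 3 fell (Ccnd2, Ccnd3 and Tpx2), in place of 11 and 4, and the mitosis median fell from 0.42 to 0.099. Without 0-day replicate 1 the 60-day counts were 6 and 3. Shares of all genes called are given only for the fit of all libraries, not for fits that left libraries out. At 30 days the 21 rises and 3 falls became 21 and 3 when 0-day replicate 1, 10-day replicate 2 and 60-day replicate 4 were left out together, with 20 and 3 of them shared. None of these 3 is a 30-day library. This fit could move the 30-day counts only through 0-day replicate 1 and through estimates shared by all groups. At 10 days the counts were then 15 and 4, and at 60 days 2 (Aurka and Kif20a) and 3. These libraries were singled out after their values were seen.

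**Figure D5:**
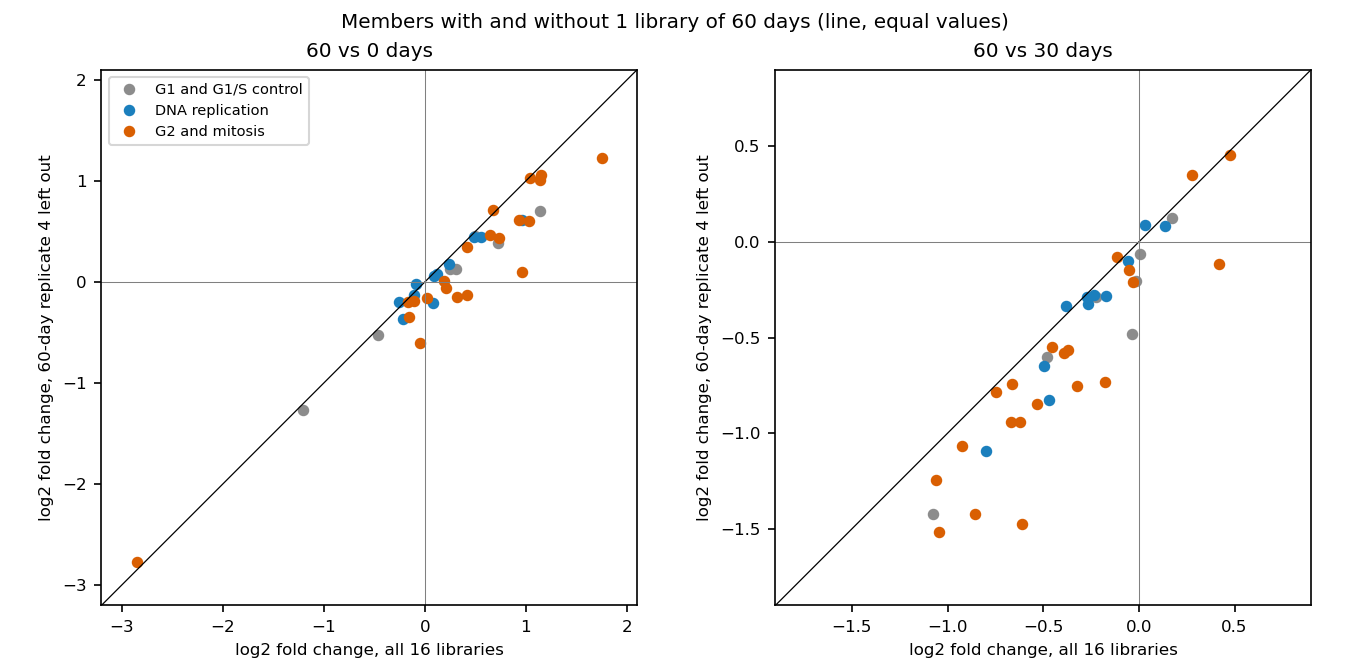
Log2 fold change of each member with all 16 libraries (x axis) and without 60-day replicate 4 (y axis), for 60 against 0 days and 60 against 30 days; points are members coloured by role and the line marks equal values. Most points lie below the line, and the median of the 21 mitosis members against 0 days is 0.42 with and 0.099 without that library.

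Other cell cycle genes, from lists that hold none of the members, were described in the same fit. Of 34 further mitosis genes tested 25 rose and 1 fell at 30 days, with 16 and 2 at 10 days and 7 and 2 at 60 days, and medians of 1.17, 0.77 and 0.34, where 33.7%, 33.3% and 29.9% of all genes rose. Cks2, which binds Cdk1, rose by 2.89 ± 0.29 at 30 days (edgeR adjusted p = 3.37e-07), and Cdc25c, the phosphatase that activates Cdk1, by 2.81 ± 0.37 at 10 days (adjusted p = 4.99e-06). Espl1, the separase that cuts cohesin, fell by 3.35 ± 0.20, 2.76 ± 0.19 and 1.94 ± 0.18 on the log2 scale at 10, 30 and 60 days. It measured 11 to 15.1 CPM over the 0-day libraries and 0.983 to 3.86 CPM over the operated ones, so that, like Tpx2, it was highest at 0 days.

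Of 39 further replication genes 15 rose and 6 fell at 10 days, 18 and 6 at 30 days and 12 and 8 at 60 days, with medians of 0.27, 0.26 and 0.25. Gins2, a subunit of the replicative helicase complex, rose by 1.52 ± 0.11 at 10 days (edgeR adjusted p = 9.5e-09), and Pole2, a subunit of DNA polymerase epsilon, by 2.03 ± 0.50 at 30 days. Pola2, a subunit of the polymerase that starts DNA strands, fell at 10 days (-1.54 ± 0.22, adjusted p = 1.91e-05). Of all genes tested 33.3%, 33.7% and 29.9% rose at 10, 30 and 60 days, so the replication counts at 10 and 60 days lay near that background. The difference between the further lists was not tested.

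Several inhibitors of the cycle had larger fold changes than any member that rose. Of 23 inhibitors and p53 targets tested 13 rose and 9 fell at 30 days, 12 and 4 at 10 days and 12 and 6 at 60 days. The shares of all genes tested at 30, 10 and 60 days were 33.7%, 33.3% and 29.9% higher and 30.9%, 29.4% and 29.1% lower. Cdkn1a, the p21 inhibitor of Cdk2, measured 31.8 to 58.4 CPM at 0 days and 1420 to 1873 CPM at 30 days, with no overlap. Its log2 fold change was 5.18 ± 0.31 at 30 days (edgeR adjusted p = 3.01e-09), and that of Gadd45a, a stress-induced inhibitor of Cdk1, was 4.97 ± 0.25. Cdkn2b, the p15 inhibitor of Cdk4 and Cdk6, rose by 3.19 ± 0.34. Of 13 further E2F, Myc and kinase partners 6 rose and 5 fell at 30 days; Myc rose by 2.64 ± 0.20 and E2f3 fell (-1.32 ± 0.19, adjusted p = 1.98e-05).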

How the data were processed

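RNA of 16 rat supraspinatus libraries, extracted with miRNeasy and prepared as TruSeq mRNA v2 libraries per the labels' protocols, was analysed from the authors' deposited table of estimated counts, the raw fragments per gene that Cuffdiff writes. Per the submitters' processing notes, the tools were bcl2fastq 1.8.4, FastQC, TopHat2 2.0.9, Bowtie2 2.1.0.0, Cufflinks and Cuffdiff 2.1.1, with the build rn5. The annotation and strand setting are not given in the sources used here. Values were fractional in 233 genes and in 0 members, and were rounded.

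All 4 groups entered 1 edgeR 4.0.16 quasi-likelihood fit (robust, TMM factors, filterByExpr by group, R 4.3.3), with Benjamini-Hochberg adjustment over the 11658 genes tested and a threshold of 0.05. The SE is the absolute log2 fold change divided by the root of F. CPM used TMM-scaled library sizes. Totals were 17.2 to 39.9 M fragments, and floors (3 counts) cover counting error only. Python 3.11.15, pandas 2.3.3 and matplotlib 3.10.9 read the RefSeq promoters and drew the plots.

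The members, gene lists and marker lists were chosen with earlier results of these data known. Any member could be named, and of the other cell cycle lists the genes with the 3 largest rises and 3 largest falls among those called. Alternatives were RLE, upper-quartile and library-total scaling, other filters, DESeq2 1.42.0, limma 3.58.1 voom, 2 groups per fit, no robust estimation, a threshold of 0.01, a title letter as covariate, a replicate block and leaving out libraries. On simulated counts of 11529 genes for 30 against 0 days, 158 of 200 genes changed 2-fold were recovered with 6 false calls.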

Additional observations from a re-analysis of the deposited data

Results flagged for a closer look

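Among 156 groups of 4 libraries examined, 1 for each member and time, 7 held a library far from the other 3, where chance gives about 1 in 20 groups. At 0 days replicate 1 stood apart for Ccnd3 (35.9 CPM) and for Tyms (1.01 CPM). At 30 days replicate 1 stood apart for Mcm3 (3.54 CPM). At 60 days replicate 1 stood apart for Mcm7 (48.5 CPM) and Aurka (36.2 CPM), and replicate 4 for E2f1 (2.00 CPM) and Kif23 (1.60 CPM).

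For 5 members the estimates against 0 days had opposite signs at a pair of times, and the difference between those times passed the edgeR test. Most of the estimates against 0 days did not pass themselves. Cdc6 passed at no time, Rrm2, Bub1 and Nusap1 only at 10 days, and Mcm7 at 10 and 60 days. Mcm7 changed by -0.38 from 30 to 60 days and by -0.83 from 10 to 60 days on the log2 scale. Rrm2 changed by -1.14 from 10 to 60 days. Cdc6 changed by 0.51 from 10 to 30 days and by 0.45 from 10 to 60 days. Bub1 changed by 1.23 and 1.21 over the same intervals, and Nusap1 by 0.99 from 10 to 30 days.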

How the results depend on the processing

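Mitosis members had the lowest counts and 60-day libraries the smallest totals. What these limit was not tested. Shares of all genes called are given above only for the fit of all libraries with TMM factors. The counts under alternatives that follow have no such background. With library totals the members changed numbered 34, 37 and 27 at 10, 30 and 60 days against 0 days, 8 from 30 to 60 days and 13 from 10 to 60 days. The G1 medians were then 1.11, 0.82 and 0.72, the replication medians 0.95, 0.83 and 0.51 (-0.40 from 10 to 60 days), and the mitosis medians 1.25, 1.53 and 0.83. That scaling moves all genes alike, and under it the sign turned for Ccnd1 at 10 days (0.55), Ccnd3 at 10 and 30 days (0.44 and 0.25), Mcm7 at 60 days (0.15) and Rrm1 at 10, 30 and 60 days (0.60, 0.38 and 0.32). Upper-quartile factors turned Rrm1 (0.0011, 0.0078 and 0.057) and gave 30-day medians of 0.45 for G1 and 0.46 for replication. A threshold of 0.01 gave 12, 5, 4, 1 and 4 members at 10 against 0, 60 against 0, 30 against 10, 60 against 30 and 60 against 10 days, and 18 in the joint test. A mean of at least 1 CPM left 15 members at 30 days, with medians of 0.19 for G1 at 10 days and 0.82 for mitosis at 30 days. Fits of only the 2 groups gave 9 at 60 against 0 days and 2 at 60 against 30 days, and voom gave 17 at 30 against 10 days. Without the 3 libraries together, 5, 14 and 12 members changed at 60 against 0, 60 against 30 and 60 against 10 days. The mitosis median was then 0.047 at 60 days and -0.30 from 10 to 60 days, Rrm1 0.0064 and Top2a -0.30 at 60 days; Top2a was -0.15 without 60-day replicate 4. The cause of these shifts was not tested.

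Leaving out 1 library at a time gave 15 to 22 members at 10 against 0 days, 22 to 25 at 30 against 0, 7 to 17 at 60 against 0, 7 to 13 at 30 against 10, 2 to 11 at 60 against 30 and 5 to 10 at 60 against 10, and 23 to 29 in the joint test. At 10, 30 and 60 days and from 10 to 60 days, G1 medians ran from 0.38 to 0.59, 0.29 to 0.46, 0.13 to 0.45 and -0.33 to -0.17. Replication medians ran from 0.15 to 0.42, 0.30 to 0.38, 0.053 to 0.20 and -0.25 to -0.0044, and mitosis medians from 0.38 to 0.72, 0.86 to 1.13, 0.099 to 0.64 and -0.11 to 0.30. The replicate number did not pair the libraries (mean correlations between -0.107 and 0.063), and with a replicate block 19, 23, 12, 10, 4 and 8 members changed at 10, 30 and 60 against 0 days, 30 against 10, 60 against 30 and 60 against 10 days, and 27 in the joint test.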
